A study of Mus musculus with 20 samples.

Results

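The set described here is made of 10 protein-coding genes: Kap, Napsa, Ttr, Spink1, Timp3, Kcnj15, Lpl, Arl6ip1, Nat8 and Slc34a1. They are 10 of the 34255 genes in the count table and were chosen by their counts, as high in peritubular capillaries against whole kidney or against the other microvascular compartments, so their values in those comparisons describe the choice and carry no test. All 10 were found in the table and all 10 passed the filter on low counts. Of these, 9 held their highest group mean in peritubular capillaries, whereas the mean of Ttr was higher in post-capillary venules, and for Napsa the order of peritubular capillaries and whole kidney depended on the scaling of the libraries.

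The kidneys came from healthy wild-type (WT) male C57BL6/OlaHsd mice, 8 to 12 weeks old per the study's methods, with no treatment in any group. Laser microdissection (LMD) of the renal cortex gave post-capillary venules, peritubular capillaries, glomeruli and arterioles, and undissected whole kidney was the fifth group, with 4 libraries in each of the 5 groups. Peritubular capillaries were cut from a slide stained with the endothelium-binding lectin isolectin B4 and the other compartments from a slide stained with hematoxylin, with a smaller area for arterioles and peritubular capillaries. Stain and slide thus cannot be told apart from compartment where peritubular capillaries are set against the other compartments. The 3′ mRNA libraries count reads near the 3′ end of each transcript, and microdissected libraries were amplified with 24 PCR cycles and whole kidney libraries with 18, so preparation and compartment cannot be told apart in comparisons with whole kidney. The labels do not tie a library to a mouse, so each p-value is set against library-to-library spread, part of which may be technical. Per the study's methods, all compartments were cut from each mouse. Libraries of different groups may therefore share a mouse, which the main tests do not model. Per-sample totals ranged from 4639090 to 12283098 per library. Libraries carry the numbers 93, 96, 98 and 100 of the table, and values below follow that order. The column of capillary 96 carries 2 further letters (WH) whose meaning is not given; without this library the log2 fold changes of peritubular capillaries over whole kidney ran from 0.41 for Napsa to 2.74 for Ttr, in place of 0.24 to 2.82. Levels are given in CPM, the count of a gene relative to the library total after scaling by TMM, a method that sets libraries on a common scale through genes that differ little between them.

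Peritubular capillaries are thin vessels that wrap the renal tubules, and in the cortex most of the neighboring tubule is proximal tubule. Proximal tubule cells take back most of the filtered phosphate, glucose, amino acids and small proteins through carriers and endocytic receptors, and in the mouse several of their transcripts depend on androgen. Slc34a1, Kcnj15, Nat8 and Kap are known as proximal tubule transcripts, Lpl encodes an enzyme that works on the luminal face of capillaries, and Timp3 encodes a matrix-bound inhibitor made by many vascular and stromal cells. In such bulk samples, fewer cells of a type and less RNA per cell cannot be told apart.

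The labelled compartment was checked against its markers. Over 13 pan-endothelial markers, the summed level was 975 CPM (range 631 to 1823) in peritubular capillaries, 568 CPM (502 to 628) in whole kidney, 1376 CPM in post-capillary venules, 4119 CPM in glomeruli and 5179 CPM in arterioles. Each capillary library was thus above every whole kidney library in TMM scaling, by a narrow gap (631 against 628 CPM). Flt1 was the sole marker of the 13 for which this held singly. With raw library totals neither separation would hold, as TMM factors were at most 0.997 in capillary and at least 1.137 in whole kidney libraries. Emcn ranged from 57.4 to 626 CPM over the capillary libraries. Marker separations below are likewise in TMM scaling and were not checked with raw totals. Pecam1, an adhesion molecule of endothelial cells, stood at 61.3 ± 27.6 CPM in peritubular capillaries and 65.1 ± 9.07 CPM in whole kidney (mean ± SD, n = 4), and Cdh5, the endothelial cadherin, at 2.27 ± 3.51 CPM and 11.5 ± 3.32 CPM. The 7 markers of peritubular capillary endothelium summed to 786 CPM (597 to 1014) in peritubular capillaries, against 637 CPM (567 to 697) in whole kidney. Their sum was 857 CPM in glomeruli, 686 CPM in venules and 546 CPM in arterioles, so it was not highest in peritubular capillaries. Cd36 was the sole marker of the 7 with every capillary library above every whole kidney library, and none had them all below. The 10 proximal tubule markers, which include no member of the set, summed to 12842 CPM (9737 to 17041) in peritubular capillaries, 7931 CPM (7378 to 8788) in whole kidney, 7986 CPM in post-capillary venules, 2330 CPM in glomeruli and 2794 CPM in arterioles. Of the 10, 6 (Slc5a2, Slc5a12, Slc22a6, Slc22a8, Lrp2 and Miox) held all 4 capillary libraries above all 4 whole kidney libraries. The 8 markers of later nephron segments (loop, distal tubule, collecting duct) summed to 3744 CPM (3229 to 4427) in peritubular capillaries and 3243 CPM (3061 to 3517) in whole kidney, and the 6 podocyte markers to 213 CPM and 188 CPM. Among the 8 later-segment markers, Slc12a3 had every capillary library above every whole kidney library (1016 ± 351 against 233 ± 24.8 CPM). Slc12a1 had them all below (202 ± 127 against 467 ± 79.2 CPM). The 6 smooth muscle markers summed to 249 CPM in peritubular capillaries and 28742 CPM in arterioles, and the 5 erythrocyte markers to 1429 CPM in peritubular capillaries, 34484 CPM in venules and 35327 CPM in arterioles. None of the endothelial or proximal tubule markers was at 0 in any capillary library. The proximal tubule markers, and Slc12a3 of the later segments, thus moved with most of the 10 genes. Their part in the levels below was not tested.

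**Figure D1:**
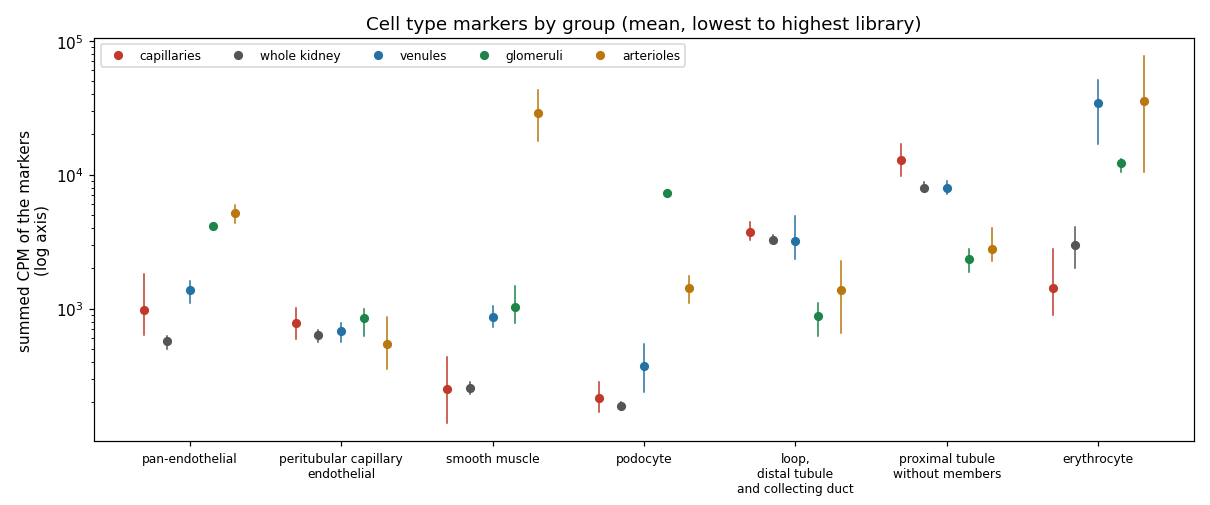
Summed CPM of each cell type marker list (y axis, log scale) in the 5 groups; dots are means of 4 libraries and lines run from the lowest to the highest library. The proximal tubule markers are highest in peritubular capillaries (12842 CPM), and the pan-endothelial markers are higher in glomeruli and arterioles (4119 and 5179 CPM) than in peritubular capillaries (975 CPM).

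Upstream sequence is shown for 4 genes that span the range of shared behavior over the 20 libraries: Kap and Arl6ip1, whose levels were the most alike within the set, Slc34a1, with a high mean correlation to the others, and Timp3, with the lowest. RefSeq promoter windows (GRCm38.p6) were matched by symbol for 6 of the 10 genes, as 7 windows, and none was matched for Napsa, Ttr, Spink1 and Lpl. Each line gives the 250 bases before the RefSeq start, 5′ to 3′ on the gene's strand, cut short where an exon of GENCODE M21 begins. Capitals mark the motifs searched. The Kap stretch is chr6:133853763-133853917 (minus strand, 155 bases), the Arl6ip1 stretch chr7:118129663-118129875 (minus strand, 213 bases), the Slc34a1 stretch chr13:55399398-55399647 (plus strand, 250 bases, inside the GENCODE gene but in no exon) and the Timp3 stretch chr10:86300162-86300371 (plus strand, 210 bases).
Kap: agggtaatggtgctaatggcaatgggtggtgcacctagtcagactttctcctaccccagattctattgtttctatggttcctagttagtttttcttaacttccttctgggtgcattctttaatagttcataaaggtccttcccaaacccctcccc
Arl6ip1: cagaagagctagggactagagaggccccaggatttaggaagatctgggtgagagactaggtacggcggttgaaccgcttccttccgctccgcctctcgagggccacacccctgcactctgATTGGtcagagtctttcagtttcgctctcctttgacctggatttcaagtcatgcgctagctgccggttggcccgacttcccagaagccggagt
Slc34a1: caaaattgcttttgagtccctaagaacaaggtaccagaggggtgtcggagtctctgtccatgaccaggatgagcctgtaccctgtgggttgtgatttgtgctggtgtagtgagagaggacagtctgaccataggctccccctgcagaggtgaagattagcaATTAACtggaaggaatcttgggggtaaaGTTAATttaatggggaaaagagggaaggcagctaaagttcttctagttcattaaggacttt
Timp3: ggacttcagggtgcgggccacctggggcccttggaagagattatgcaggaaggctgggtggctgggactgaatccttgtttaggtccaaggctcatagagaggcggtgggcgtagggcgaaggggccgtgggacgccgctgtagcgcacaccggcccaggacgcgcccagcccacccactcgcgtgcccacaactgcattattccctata
The 4 motifs, chosen after the sequences had been read, were searched on both strands of the full 250 bases. The core of the motif of HNF1, a transcription factor of proximal tubule and liver, was searched as GTTAAT. It lay at 61 to 56 bases before the Slc34a1 start and, on the other strand, at 89 to 84 bases, and at 27 to 22 bases before the start of 1 of the 2 Nat8 windows; 6.43% of the 32851 windows in the table held it. A TATA box (TATAAA) lay 31 to 26 bases before the Kap start, within bases that GENCODE counts as exon and that are not printed; 12.4% of windows held these letters. The CCAAT box (CCAAT) was found in the Arl6ip1 window on each strand, of which the match 28 to 24 bases before the start lies in exonic bases that are not printed, and in the same Nat8 window on each strand, against 33.8% of all windows. The core of the HNF4 motif (CAAAGTCC, in 1.2% of windows) was in none of the 7 windows. The Timp3 and Kcnj15 windows held none of the 4.

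Gene positions are from GENCODE M21 (GRCm38). Kap (ENSMUSG00000032758, chr6:133849851-133853762, minus strand) encodes the kidney androgen-regulated protein, a transcript of mouse proximal tubule under the control of androgen. Its level was 51861, 57672, 82452 and 93762 CPM in the 4 capillary libraries. Whole kidney libraries held 27837, 28692, 29715 and 28772 CPM and venule libraries 19270, 17306, 15140 and 16463 CPM. Glomerular libraries held 4525, 2847, 4182 and 4310 CPM, and arteriole libraries 5770, 6400, 6357 and 12745 CPM. No library of a group overlapped the next group in the order peritubular capillaries, whole kidney, venules, arterioles and glomeruli, although the arteriole and glomerular means lay within their summed SD. Kap took 5.90% of all counts in peritubular capillaries (range 5.16 to 6.68), 3.40% in whole kidney, 1.69% in venules, 0.634% in arterioles and 0.505% in glomeruli. The fitted log2 fold change of peritubular capillaries was 1.31 ± 0.19 (SE) over whole kidney and 3.14 ± 0.15 over the mean of the 3 other compartments.

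Slc34a1 (ENSMUSG00000021490, chr13:55398187-55415592, plus strand) encodes the sodium-phosphate cotransporter NaPi-IIa of the proximal tubule brush border. Capillary libraries held 5983, 7102, 11222 and 14558 CPM and venule libraries 5442, 4061, 4107 and 5313 CPM. Whole kidney libraries lay lower, at 2994, 2621, 2864 and 2755 CPM. Arteriole libraries held 816, 1801, 1467 and 1373 CPM and glomerular libraries 1887, 1178, 1047 and 839 CPM. Peritubular capillaries, venules and whole kidney were separated in that order without overlap, and arterioles and glomeruli overlapped. Peritubular capillaries had a fitted log2 fold change of 1.79 ± 0.27 over whole kidney and 2.28 ± 0.21 over the other compartments.

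Kcnj15 (ENSMUSG00000062609, chr16:95257558-95300260, plus strand) encodes Kir4.2, an inward rectifier potassium channel of the basolateral membrane of proximal tubule cells. The capillary libraries held 1277, 2624, 3244 and 3092 CPM, so capillary 93 was low and fell below venule 100, the highest of the venule libraries at 776, 625, 541 and 1419 CPM. With raw library totals in place of TMM scaling, capillary 93 held 1270 CPM and venule 100 held 1256 CPM. Whole kidney libraries held 601 to 835 CPM, arteriole libraries 168 to 420 CPM and glomerular libraries 280 to 396 CPM. Whole kidney and venules overlapped, as did arterioles and glomeruli. The log2 fold change of peritubular capillaries was 1.78 ± 0.36 over whole kidney and 2.52 ± 0.29 over the other compartments. Gm31641, which overlaps Kcnj15 on the opposite strand, reached at most 40.3 CPM in any library.

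Ttr (ENSMUSG00000061808, chr18:20665280-20674321, plus strand) encodes transthyretin, the carrier of thyroxine and of retinol-binding protein in plasma. Its pattern stood apart. Capillary libraries held 422, 1540, 1290 and 2085 CPM and venule libraries 1192, 1635, 1175 and 1440 CPM, with means of 1334 ± 693 and 1360 ± 219 CPM (SD, n = 4). These groups overlapped fully. Whole kidney libraries held 164, 219, 216 and 157 CPM, and every capillary and venule library was above all of them. Glomerular libraries held 126, 76.1, 88.9 and 93.3 CPM, and arteriole libraries 155, 13.04, 270 and 22.3 CPM, the widest spread of the set relative to its mean. The log2 fold change of peritubular capillaries over whole kidney was 2.82 ± 0.57, the largest of the 10 in that comparison.

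Spink1 (ENSMUSG00000024503, chr18:43728082-43737557, minus strand) encodes a Kazal-type inhibitor of trypsin-like serine proteases. Capillary libraries held 3962, 4713, 6406 and 7011 CPM and venule libraries 3035, 3564, 2023 and 2966 CPM. Whole kidney libraries held 1411, 1790, 1644 and 1524 CPM, glomerular libraries 1002, 785, 606 and 608 CPM, and arteriole libraries 470, 201, 800 and 946 CPM. The order peritubular capillaries, venules, whole kidney and glomeruli held without overlap, and glomeruli and arterioles overlapped. For Spink1, the fitted log2 fold change of peritubular capillaries was 1.79 ± 0.32 over whole kidney and 2.33 ± 0.25 over the other compartments.

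Timp3 (ENSMUSG00000020044, chr10:86300372-86349506, plus strand) encodes a tissue inhibitor of metalloproteinases that binds to extracellular matrix. Capillary libraries held 3346, 3683, 5199 and 5594 CPM. Arteriole libraries held 2802, 4968, 2686 and 2800 CPM, of which arteriole 96 was above capillaries 93 and 96. With raw library totals, arteriole libraries held 2148 to 2711 CPM and capillary libraries 3326 to 4212 CPM, without overlap. In that scaling glomerulus 93, at 3567 CPM, was above capillary 93. Venule libraries held 1996, 2773, 2794 and 2880 CPM and glomerular libraries 2682, 1879, 1872 and 2170 CPM. Whole kidney libraries were lowest, at 1452, 1195, 1344 and 1360 CPM, below every microdissected library. Neighbors in the order peritubular capillaries, arterioles, venules and glomeruli overlapped at each step. The log2 fold change was 1.74 ± 0.25 over whole kidney and 0.75 ± 0.21 over the other compartments, the smallest of the 10. Syn3, which overlaps Timp3 on the opposite strand, reached at most 49.6 CPM in any library.

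Lpl (ENSMUSG00000015568, chr8:68880491-68907448, plus strand) encodes lipoprotein lipase, which frees fatty acids from triglyceride-rich lipoproteins at the capillary wall. Capillary libraries held 2432, 2140, 3114 and 4660 CPM and whole kidney libraries 1752, 1559, 1521 and 1897 CPM, without overlap. With raw library totals in place of TMM scaling, an alternative chosen after seeing the data, these groups overlapped. Venule libraries held 679 to 1004 CPM, glomerular libraries 630 to 920 CPM and arteriole libraries 179 to 1250 CPM, all overlapping each other. The log2 fold change of peritubular capillaries was 0.88 ± 0.36 over whole kidney and 2.12 ± 0.30 over the other compartments.

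Napsa (ENSMUSG00000002204, chr7:44572380-44586862, plus strand) encodes napsin A, an aspartic protease of kidney and lung. Capillary libraries held 1629, 1119, 2063 and 2450 CPM and whole kidney libraries 1955, 1362, 1481 and 1342 CPM, with full overlap. With raw library totals the group means were 1495 CPM in peritubular capillaries and 1821 CPM in whole kidney, in the opposite order. Venule libraries held 400, 396, 547 and 488 CPM, arteriole libraries 129, 558, 133 and 252 CPM, and glomerular libraries 141, 83.3, 140 and 69.4 CPM. All capillary libraries were above the 12 other microdissected libraries. Napsa had a log2 fold change of 0.24 ± 0.38 over whole kidney and 2.93 ± 0.33 over the other compartments.

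Nat8 (ENSMUSG00000030004, chr6:85830388-85832082, minus strand) encodes an N-acetyltransferase of cysteine conjugates in the mercapturic acid pathway. Capillary libraries held 541, 748, 996 and 2047 CPM, and whole kidney libraries 235, 281, 269 and 299 CPM. Venule libraries held 207, 127, 139 and 130 CPM, and glomerular libraries 30.4, 108, 114 and 34.6 CPM. Arteriole libraries ranged from 9.01 to 187 CPM. Capillary 100 was the highest library, and the group did not overlap any other. Its log2 fold change was 2.00 ± 0.58 over whole kidney and 3.47 ± 0.46 over the other compartments. Nat8 has near-identical relatives (Nat8f1 to Nat8f7), so reads may be split among them, and the value of each is uncertain. Nat8f1 stood at 1568 ± 686 CPM in peritubular capillaries, 384 ± 46.2 CPM in whole kidney, 564 ± 202 CPM in venules, 210 ± 130 CPM in glomeruli and 141 ± 112 CPM in arterioles.

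Arl6ip1 (ENSMUSG00000030654, chr7:118118891-118129662, minus strand) encodes a membrane protein that shapes the tubules of the endoplasmic reticulum. Capillary libraries held 1640, 2052, 2228 and 2907 CPM. Whole kidney libraries held 662 to 903 CPM and venule libraries 483 to 964 CPM, with overlap. Arteriole libraries held 252 to 486 CPM and glomerular libraries 199 to 286 CPM, again with overlap. The log2 fold change of peritubular capillaries was 1.45 ± 0.32 over whole kidney and 2.54 ± 0.27 over the other compartments.

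**Figure D2:**
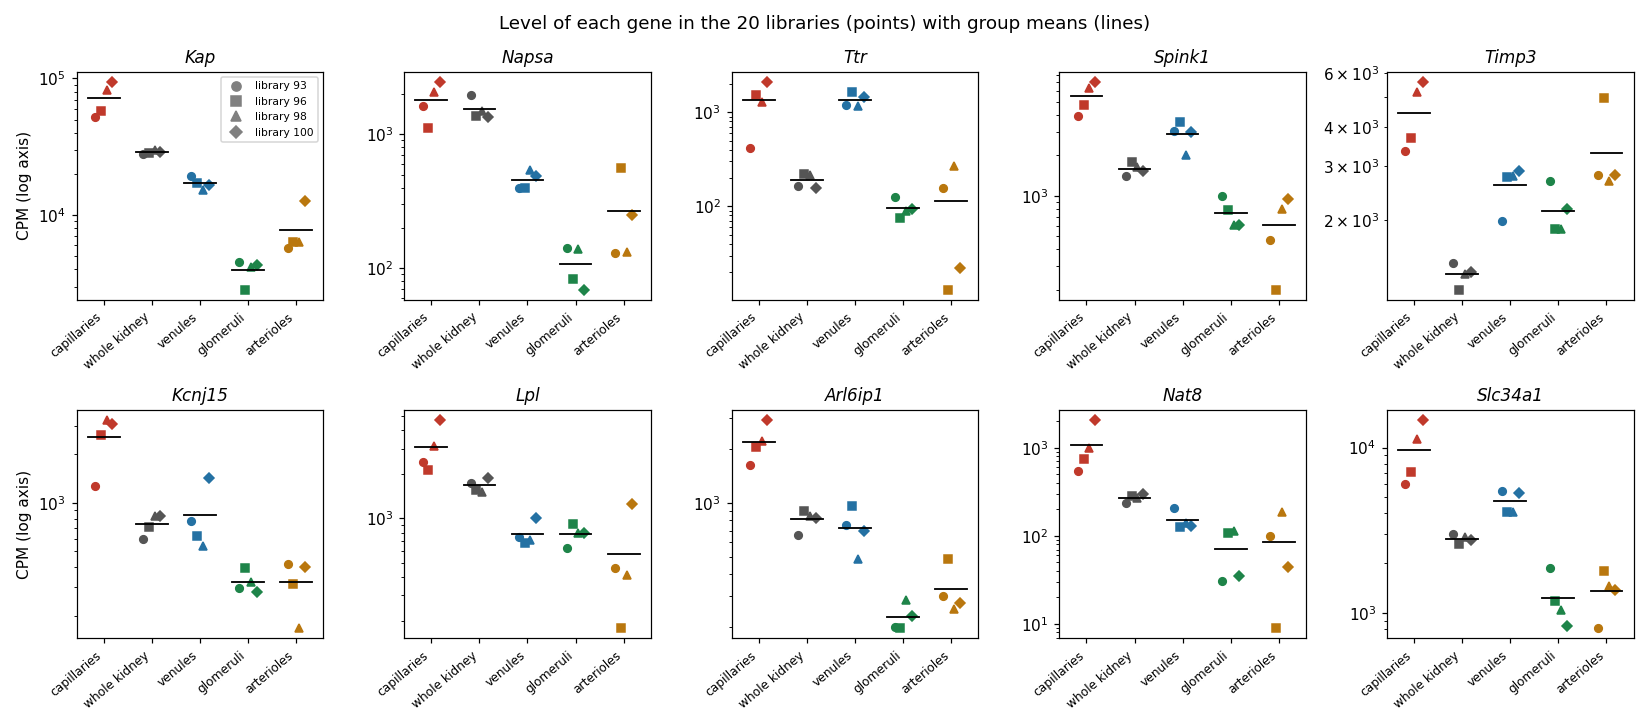
CPM (y axis, log scale) of each of the 10 genes in the 20 libraries, one marker shape per library number; lines are group means. Capillary libraries lie above all other libraries for Kap, Spink1, Lpl, Arl6ip1, Nat8 and Slc34a1, overlap whole kidney for Napsa, overlap venules for Ttr and Kcnj15, and overlap arterioles for Timp3.

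Over the set, 9 of 10 genes had every capillary library above every whole kidney library (all but Napsa), as had 6.08% of the 13813 genes tested. For 7 of 10, every capillary library was above the 12 other microdissected libraries, as for 1.35% of the 12179 genes tested there, and 6 of 10 stood above all 16 other libraries, as did 0.912% of 13813 genes. Against venules alone, 8 of 10 were separated (3.19% of genes tested; not Ttr and Kcnj15). These separations follow from the choice of the genes. With raw library totals the counts were 8, 8, 6 and 9 of 10. Together the 10 genes took 8.50% of counts in peritubular capillaries (7.27 to 9.58), 4.70% in whole kidney, 3.13% in venules, 1.24% in glomeruli and 1.18% in arterioles. The capillary libraries were not alike. Capillary 93 was the lowest of the 4 for 8 of 10 genes, also with raw totals, and capillary 100 was the highest for 9 of 10 genes, but for 3 of 10 with raw totals. TMM scaled capillary 100 by a factor of 0.648 against 0.997 for capillary 93. Without capillary 100, the log2 fold change over whole kidney moved from 2.00 to 1.49 for Nat8, from 0.88 to 0.60 for Lpl and from 0.24 to 0.06 for Napsa.

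The comparisons among arterioles, glomeruli and venules set no capillary library against another group and were tested, in a fit whose filter, scaling and estimate of the spread also drew on the 4 capillary libraries. The values of arterioles, glomeruli and venules entered the choice of the genes, as the side set against peritubular capillaries. The calls below are therefore not independent of that choice. A gene was called at FDR under 0.05 in edgeR's quasi-likelihood test over all genes and a log2 fold change beyond 1 in size. The 10 genes were most often higher in post-capillary venules than in glomeruli or arterioles. The medians of the early and late proximal tubule lists, described further below, lay on the same side. The comparisons of glomeruli and of arterioles with venules share the 4 venule libraries, so their values are given side by side.

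In glomeruli against venules, 6 of 10 genes were called lower in glomeruli and none higher. The same rule called 1.22% of the 12179 genes tested, 0.731% as lower and 0.493% as higher. Kap fell by 2.11 ± 0.21 on the log2 scale (SE; FDR = 2.61e-08, edgeR quasi-likelihood test), and the 4 venule libraries were above the 4 glomerular libraries. Slc34a1 was lower by a log2 fold change of -1.94 ± 0.29 (FDR = 5.87e-05, edgeR), and Spink1 by -1.95 ± 0.35 (FDR = 0.000848, edgeR). Ttr showed the largest difference, at -3.83 ± 0.62 (FDR = 0.000233, edgeR). Napsa (-2.09 ± 0.46, FDR = 0.0114, edgeR) and Arl6ip1 (-1.67 ± 0.37, FDR = 0.014, edgeR) were also called. The calls of Napsa and Arl6ip1 lay near the threshold and were lost without some libraries, while fewer genes were called in all (67 to 105 in place of 149) when any library of these groups was left out. Without glomerulus 96 or glomerulus 100, FDR was 0.051 and 0.0762 for Napsa and 0.0541 and 0.062 for Arl6ip1, and without venule 96 it was 0.0756 for Arl6ip1 (edgeR). Kcnj15 was not called (-1.38 ± 0.39, FDR = 0.0749, edgeR), but was called lower with no low-count filter (FDR = 0.0249), with an independent filter on the mean count (0.00294) and in a fit of only these 2 groups (0.00741). Not called either were Nat8 (-1.07 ± 0.62), Timp3 (-0.28 ± 0.27) and Lpl (-0.0023 ± 0.40). For 8 genes, every venule library was above every glomerular library, as for 6.05% of genes tested; Timp3 and Lpl were the exceptions. The median log2 fold change was -1.80 over the 10 genes and 0.04 over all genes. It was -1.77 over the early and -2.01 over the late proximal tubule list, both without members of the set. With raw totals the same 6 genes were called, while the rule called 106 genes higher and 54 lower in place of 60 and 89.

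In arterioles against venules, 5 of 10 genes were called lower in arterioles and none higher, against 4.37% of all genes tested, 1.86% as lower and 2.5% as higher. Ttr had a log2 fold change of -3.57 ± 0.62 (FDR = 0.000259, edgeR) and Spink1 of -2.26 ± 0.35 (FDR = 4.87e-05, edgeR). For Slc34a1 it was -1.80 ± 0.29 (FDR = 0.000102, edgeR), with venule libraries at 4061 to 5442 CPM and arteriole libraries at 816 to 1801 CPM. Kap (-1.13 ± 0.20, FDR = 0.000393, edgeR) and Kcnj15 (-1.37 ± 0.39, FDR = 0.0353, edgeR) were called but depended on the processing. With size factors of the RLE method, Kap had a log2 fold change of -0.90, under the fold minimum, and Kcnj15 an FDR of 0.119 (edgeR), and DESeq2 called neither. Kcnj15 also lost its call in a fit of only these 2 groups (FDR = 0.108, edgeR) and without arteriole 98 (FDR = 0.0941, edgeR), venule 93 (0.0661) or venule 100 (0.163). Arl6ip1 (-1.15 ± 0.37, FDR = 0.0664), Nat8 (-0.83 ± 0.62), Napsa (-0.78 ± 0.45), Lpl (-0.46 ± 0.40) and Timp3 (0.34 ± 0.27, but -0.058 with raw totals) were not called. Arl6ip1 was called lower with raw totals (FDR = 0.00375, edgeR). Without arteriole 96, in which Napsa and Arl6ip1 were highest of the arteriole libraries, both were called lower (FDR = 0.0466 and 0.02, edgeR). Every venule library was above every arteriole library for Kap, Ttr, Spink1, Kcnj15 and Slc34a1, as for 6.4% of genes tested. The median log2 fold change was -1.14 over the 10 genes and 0.24 over all genes. It was -2.42 over the early and -1.07 over the late proximal tubule list. With raw totals the rule called 210 genes higher and 292 lower in place of 305 and 227.

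In arterioles against glomeruli, none of the 10 genes was called by edgeR, against 2.18% of genes tested (1.31% higher and 0.862% lower). An unadjusted p under 0.05 was found for 3 of them, Kap, Napsa and Timp3. Kap came nearest to a call, at a log2 fold change of 0.98 ± 0.20 (FDR = 0.00256, edgeR), just under the fold minimum. Napsa was at 1.31 ± 0.45 (FDR = 0.117, edgeR) and Timp3 at 0.62 ± 0.27 (FDR = 0.197, edgeR). DESeq2 called Kap and Napsa higher in arterioles. With raw totals, Timp3 turned to -0.14, and the rule called 80 genes higher and 204 lower in place of 160 and 105. Every arteriole library was above every glomerular library for Kap and Timp3, as for 4.47% of genes tested, but for neither with raw totals. The reverse held for none of the 10 genes and for 7.79% of genes tested. The median log2 fold change was 0.25 over the 10 genes and 0.27 over all genes.

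**Figure D3:**
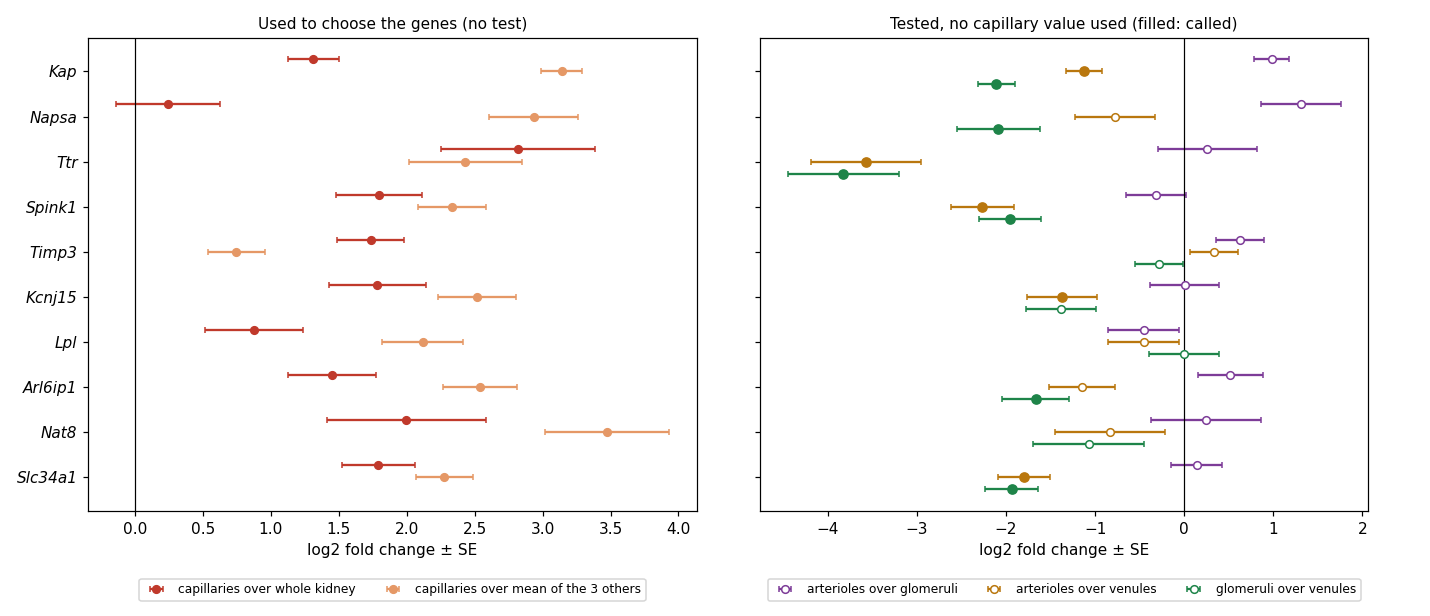
Fitted log2 fold changes ± SE (x axis) of the 10 genes. Left, the 2 comparisons that chose the genes, shown with no test; right, the 3 tested comparisons, with filled dots for called genes. Values lie left of 0 for glomeruli and arterioles over venules in most genes, down to -3.83 for Ttr, and Timp3 and Lpl lie near 0 in glomeruli over venules.

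Against whole kidney, every venule library was above every whole kidney library for Ttr, Spink1, Timp3 and Slc34a1 (5.81% of genes tested), and every whole kidney library above every venule library for Kap, Napsa, Lpl and Nat8 (14.4%). Kcnj15 and Arl6ip1 overlapped. All whole kidney libraries were above all glomerular libraries for 9 of 10 genes (18% of genes tested; not Timp3) and above all arteriole libraries for 8 of 10 (28%; not Ttr and Timp3). Since the genes were chosen partly against whole kidney, these are descriptions.

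The level of each gene was also set against the summed level of the 10 proximal tubule markers in the same library, a ratio in which the library scaling cancels. As a percentage of that sum, Kap was 554 ± 31.5 (SD, n = 4) in peritubular capillaries, 364 ± 26.9 in whole kidney, 274 ± 32.6 in arterioles, 214 ± 25.1 in venules and 177 ± 53.8 in glomeruli. The lowest capillary library, at 532, was above the highest of all others, at 390. Slc34a1 was 73.5 ± 11.8 in peritubular capillaries, 59.2 ± 7.68 in venules, 52.8 ± 15.6 in glomeruli, 51.3 ± 20.8 in arterioles and 35.7 ± 4.34 in whole kidney, with overlap among the 4 compartments. Ttr was highest in venules, at 17.0 ± 2.35 (15.2 to 20.5), above peritubular capillaries at 10.04 ± 4.30 (4.33 to 14.2) without overlap, and 2.37 ± 0.256 in whole kidney. Timp3 was highest in arterioles (128 ± 62.7) and glomeruli (94.3 ± 21.7), with 34.7 ± 2.13 in peritubular capillaries and 17.0 ± 2.56 in whole kidney. Lpl was 34.5 ± 7.31 in glomeruli, 23.7 ± 3.25 in peritubular capillaries and 21.4 ± 3.78 in whole kidney. Napsa was highest in whole kidney, at 19.5 ± 4.61, with 14.1 ± 2.71 in peritubular capillaries. Spink1 stood at 43.0 ± 2.69 in peritubular capillaries, 36.2 ± 7.12 in venules, which overlapped them, 32.2 ± 5.73 in glomeruli, 21.0 ± 9.22 in arterioles and 20.1 ± 0.794 in whole kidney. Thus the highest mean of this ratio was in peritubular capillaries for Kap, Spink1, Kcnj15, Arl6ip1, Nat8 and Slc34a1. It was elsewhere for Napsa, Ttr, Timp3 and Lpl. Only for Kap was every capillary library above all other libraries. The lowest capillary library was at 16.2 for Arl6ip1, 13.1 for Kcnj15 and 5.56 for Nat8. The highest arteriole library was above it, at 21.1, 18.5 and 7.22. The genes were chosen as high in peritubular capillaries, so the order of the groups is a description. These ratios were not tested.

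**Figure D4:**
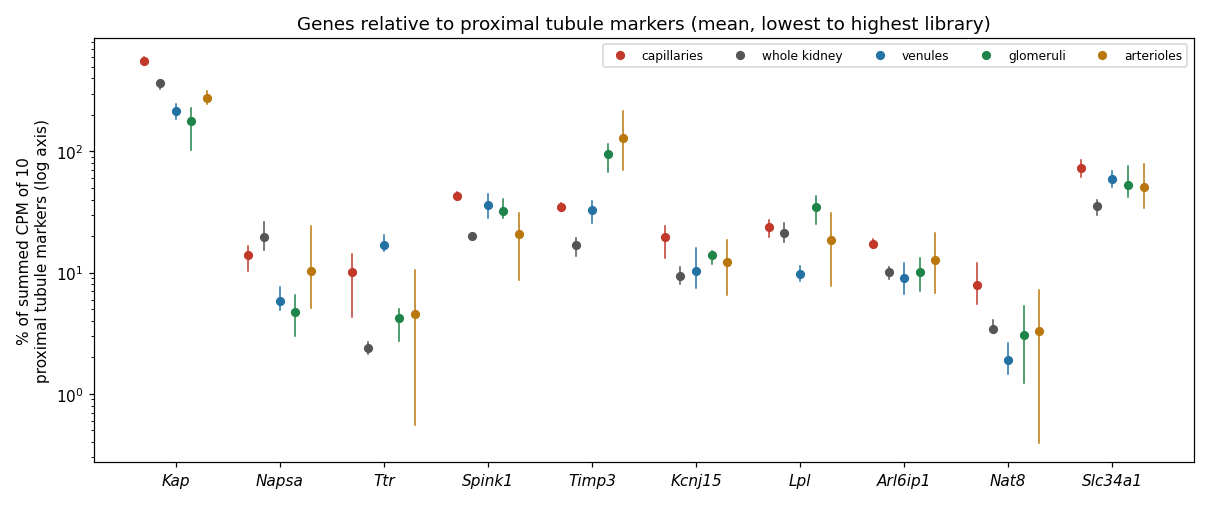
Level of each gene as a percentage of the summed CPM of 10 proximal tubule markers in the same library (y axis, log scale); dots are group means and lines run from the lowest to the highest of 4 libraries. Kap lies highest in peritubular capillaries (554), Ttr in venules (17.0), and Timp3 in arterioles (128) and glomeruli (94.3).

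Over the 20 libraries, which share compartments, preparation and range of depth, the correlation of the 10 genes with each other follows in part from their choice as high in the same 4 capillary libraries, and is given as a description. Timp3 apart, the mean Pearson r of log2(CPM + 1) with the other members ranged from 0.616 for Ttr to 0.778 for Arl6ip1, and the highest pair was Kap with Arl6ip1, at 0.951. Timp3 had a mean r of 0.232, and its lowest was 0.0161, with Lpl. Among 7055 genes with a mean of at least 20 CPM, those most like the mean of the set included Slc13a3, a dicarboxylate carrier (r = 0.951), Tmem176b (0.937), Acsm2, an acyl-CoA synthetase (0.93), Lrp2, the endocytic receptor megalin (0.928), and Gpx3, a secreted glutathione peroxidase (0.925). Slc13a3 stood at 1426 ± 370 CPM in peritubular capillaries, 400 ± 106 CPM in whole kidney and 454 ± 123 CPM in venules. The genes most like Kap were Cyp2j5 (r = 0.959) and Acsm2 (0.955), and those most like Slc34a1 were Lrp2 (0.956) and Dnase1 (0.932). Spink1 was most like Gpx3 (0.959) and Slc13a3 (0.956), and Napsa was most like Tmbim4 (0.944) and Slc27a2, a fatty acid carrier (0.942). Among the genes most like Kcnj15 was Neu1 (0.915), Arl6ip1 was most like Dbi (0.942) and Atp1b1 (0.939), and Nat8 most like Hadh (0.899) and Slc13a3 (0.895). Lpl was most like Galnt11 (0.899) and Slc22a6, an organic anion carrier (0.897). Ttr was most like Fam151a (0.87) and Fbp1 (0.862). Timp3 was most like Itga1, an integrin subunit (0.832), and Srrm2 (0.831), and both of these were lowest in whole kidney, at 169 and 330 CPM.

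The other genes of the pathways around the 10 were taken from 12 lists with 156 genes in the table. The lists were chosen with earlier results of these data known, and peritubular capillaries are the group that chose the 10 genes. An excess of list calls over the share of all genes may follow from that choice. The list calls are therefore given as a description. In peritubular capillaries against the mean of the 3 other compartments, 34 of the 127 tested list genes were called higher and 3 lower, where the rule called 7.18% of all genes, 4.27% higher and 2.91% lower. With raw totals these counts were 29 and 3 for the lists. The proximal tubule and androgen lists held the largest shares. In the early proximal tubule list, 9 of 15 genes rose and none fell, with a median log2 fold change of 2.10 against 0.07 over all genes. Slc13a3 rose by 2.79 ± 0.33 (FDR = 1.97e-07, edgeR), Slc22a6 by 3.23 ± 0.41 (7.1e-07), Lrp2 by 2.48 ± 0.33 (1.4e-06) and Slc4a4, the basolateral bicarbonate carrier, by 2.05 ± 0.33 (3.48e-05). In the late proximal tubule list, 7 of 10 rose (median 3.04), among them Slc7a13 at 3.14 ± 0.43, Atp11a at 2.92 ± 0.42, Slc6a18 at 2.45 ± 0.55 and Slc22a7 at 3.90 ± 0.91. In the list of androgen-responsive kidney genes, to which Kap would belong, 6 of 8 rose (median 2.68): Cyp4b1 by 2.73 ± 0.32 and Slco1a1 by 4.65 ± 0.64, besides Cyp2j13, Odc1 and the late proximal tubule genes Slc7a13 and Acsm3.

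Around Slc34a1, 3 of 12 tested genes of phosphate and mineral hormones rose: Pdzk1, a scaffold of NaPi-IIa (1.92 ± 0.45), Vdr, the vitamin D receptor (1.81 ± 0.49), and Pth1r, the parathyroid hormone receptor (1.39 ± 0.41). Of its family, Slc34a3 was at 49.3 ± 21.1 CPM and Slc34a2 at 1.70 ± 3.39 CPM in peritubular capillaries. Around Ttr, 4 of 12 genes of thyroid hormone and retinol handling rose, among them Lrp2, Cubn (4.28 ± 0.89) and Amn (2.28 ± 0.61), and Thra, a thyroid hormone receptor, fell. Lrp2 and Cubn, like Pdzk1 of the phosphate list, were also counted in the early proximal tubule list. Around Nat8, 5 of 12 rose, with Acy3, an aminoacylase, at 2.22 ± 0.26, Ggt1, gamma-glutamyltransferase, at 3.03 ± 0.39, and Nat8f1 at 2.61 ± 0.40, besides Nat8f6 and Nat8f5. Nat8f6 stood at 71.2 CPM in peritubular capillaries (0.782 to 114) and 55.4 CPM in venules. It was near the floor in glomeruli (1.19 CPM) and arterioles (0.71 CPM). Around Spink1, 3 of 8 serine proteases and inhibitors rose: Prss8 (2.36 ± 0.51), Hpn (2.75 ± 0.70) and Spint1 (3.25 ± 0.94). Around Kcnj15, 1 of 6 rose, Kcnj16 (2.04 ± 0.43).

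The lists around the remaining genes held few calls. Of 14 tested genes of the lipoprotein lipase system and fatty acid uptake, Cd36, a fatty acid carrier of capillary endothelium and other cells, rose by 4.19 ± 0.57 (FDR = 2.45e-06, edgeR), with 304 ± 60.2 CPM in peritubular capillaries, 163 CPM in whole kidney, 83.3 CPM in venules, 15.04 CPM in glomeruli and 3.64 CPM in arterioles. In the TIMP and metalloproteinase list, none of 12 rose and Timp2 fell, with a log2 fold change of -2.76 ± 0.38 (FDR = 3.64e-06, edgeR). Timp2 stood at 180 ± 123 CPM in peritubular capillaries, 698 ± 112 CPM in venules, 1351 ± 333 CPM in glomeruli and 1906 ± 500 CPM in arterioles. The median of that list was -0.84. Of 12 lysosomal and aspartic proteases, none rose and Ren1, renin, fell (-2.65 ± 0.74, FDR = 0.0204, edgeR), with 1092 CPM in glomeruli, 16.2 ± 14.6 CPM in peritubular capillaries and 9.64 CPM in arterioles. None of 12 genes of endoplasmic reticulum shaping was called in either direction, and the smallest p in that list was that of Rtn2 (FDR = 0.166, edgeR).

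**Figure D5:**
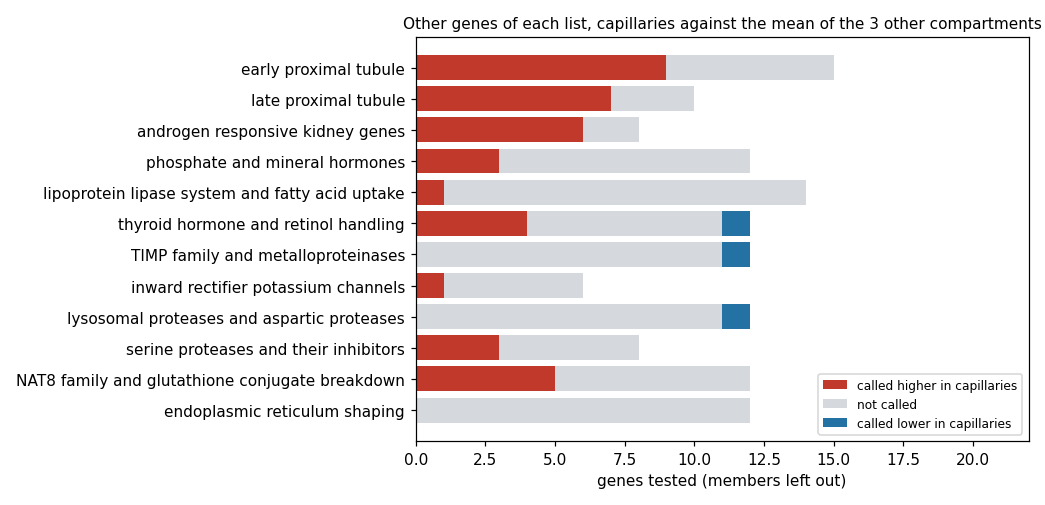
Number of tested genes of each pathway list, members left out (x axis), called higher, called lower or not called in peritubular capillaries against the mean of the 3 other compartments. Calls for higher levels concentrate in the early (9 of 15) and late (7 of 10) proximal tubule lists and the androgen list (6 of 8), and there are none in the TIMP, lysosomal and endoplasmic reticulum lists. The lists were chosen around the 10 genes with earlier results of these data known.

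Against whole kidney, none of the 136 tested list genes was called in peritubular capillaries by edgeR in the main fit, where the rule called 0.0941% of all 13813 genes, 0.0869% as higher and 0.00724% as lower. Other edgeR settings called 4 with no low-count filter, 8 with an independent filter, 18 with only the groups compared and 2 with a replicate block. RLE size factors and raw totals gave 0. Of the list genes, 26 had an unadjusted p under 0.05, and DESeq2 called 2, Slc13a3 higher and Rbp4 lower, which were named after their values were seen. Slc13a3 came nearest to a call (1.83 ± 0.41, FDR = 0.0559, edgeR), and in the Nat8 list Nat8f1 had the smallest p (2.03 ± 0.52, FDR = 0.139, edgeR). The genes with the smallest p in 5 other lists had positive fold changes and were not called in the main fit: Atp11a (1.42 ± 0.53), Cyp4b1 (1.05 ± 0.40), Vdr (1.32 ± 0.61), Lamp1 (0.84 ± 0.31) and Prss8 (1.27 ± 0.63). In 4 further lists they were Pparg, Reck, Kcnj11 and Rtn1, all with negative fold changes and FDR from 0.253 to 0.497 (edgeR). The medians were 1.08 for the early and 0.17 for the late proximal tubule list and 0.79 for the androgen list, against 0.18 over all genes. They were 1.00 for the Nat8 list, 0.71 for thyroid hormone and retinol handling, 0.69 for lysosomal proteases, 0.64 for the lipoprotein lipase list, 0.57 for phosphate, 0.56 for TIMP, 0.21 for serine proteases, 0.16 for potassium channels and 0.03 for endoplasmic reticulum shaping. The rule called 12 genes higher and 1 lower in this comparison, and 3 and 10 with raw totals.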

How the data were processed

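Processing began from the table the authors deposited, which holds raw read counts per gene (QuantSeq 3′ FWD libraries). Per the study's methods, reads were trimmed with bbduk, aligned with STAR 2.7 to GRCm38.p6 and counted with HTSeq 0.13; the submitters' processing notes also name featureCounts and the build GRCm39, with no role given. Whether counting used strand or collapsed molecular identifiers is not stated by these sources. Of 168 sample columns, 148 could not be tied to these samples and were not used.

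Counts were tested with edgeR 4.0.16 (R 4.3.3), quasi-likelihood, TMM scaling and filterByExpr, on 20 libraries (13813 genes) for comparisons with whole kidney and 16 (12179 genes) for the others. Calls needed a Benjamini-Hochberg FDR under 0.05 and a log2 fold change beyond 1 in size. SE is the log2 fold change divided by the square root of F. The script was tested on simulated data. Library totals of 4639090 to 12283098 counts set the precision of each value.

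The 10 genes and the gene lists were chosen with earlier results of these data known. Named list genes were up to 4 called genes with the smallest p per list and comparison, or the 1 with the smallest p where none was called; likeness named 2 genes per member and 6 for the mean. Some genes that this rule names are not reported here. Low-count genes whose fitted fold depends on the prior count were left without a fold. Alternatives were RLE size factors, DESeq2 1.42.0, other filters, only the groups compared, a replicate block, leaving out each library and, chosen after seeing the data, raw totals. Per the study's methods each mouse gave all compartments, but whether libraries of the same number come from the same mouse is not stated. Deviations of same-numbered libraries from the group means correlated weakly (-0.0526 to 0.0714), and the main tests did not pair them.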

Additional observations from a re-analysis of the deposited data

Results flagged for a closer look

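Of 50 gene and group combinations of 4 libraries, 4 held a library whose gap to the others exceeded Dixon's 95% limit, where chance gives about 1 in 20. Kap was at 12745 CPM in arteriole 100, with the other arteriole libraries at 5770 to 6400 CPM. Timp3 was at 4968 CPM in arteriole 96, with the others at 2686 to 2802 CPM, and at 1996 CPM in venule 93, with the others at 2773 to 2880 CPM. Nat8 was at 207 CPM in venule 93, with the others at 127 to 139 CPM. TMM scaling multiplied the total of arteriole 96 by 0.545, the lowest factor of the 20 libraries. With raw totals, Timp3 was at 2697 CPM in arteriole 96, with the other arteriole libraries at 2148 to 2711 CPM. The part of the scaling in the flagged values was not tested.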

How the results depend on the processing

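Of the tested fold changes of the 10 genes under all alternatives, 397 kept direction and side of the threshold, 17 gained a call, 13 lost it and 23 turned sign; of the untested ones, 374 moved by less than their spread, 5 moved further and 1 turned sign. Where no cause is named, it was not tested. Against the main scaling, raw totals shifted the median log2 fold change of all genes by -0.44 (peritubular capillaries over whole kidney), -0.23 (over the other compartments), -0.69 (arterioles over glomeruli), -0.30 (arterioles over venules) and 0.36 (glomeruli over venules), and RLE by 0.28 and 0.23 for arterioles over glomeruli and over venules. With raw totals, Napsa turned to -0.28 against whole kidney. Arterioles over glomeruli turned to -0.14 for Timp3, -0.57 for Slc34a1, -0.25 for Nat8, -0.24 for Arl6ip1, -0.23 for Ttr and -0.71 for Kcnj15, none of them called in either scaling. Timp3 turned to -0.058 in arterioles over venules and 0.078 in glomeruli over venules, and Lpl to 0.37 in the latter.

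For peritubular capillaries over whole kidney, 13 genes were called, 284 with DESeq2 (35 higher, 249 lower), 36 with no filter, 88 with an independent filter on the mean count set to give the most calls (mean filter) and 1380 with only the groups compared (314 higher, 1066 lower); list genes went from 0 to 2, 4, 8 and 18. Over the other compartments, 874 genes became 1947 with DESeq2 (772 higher, 1175 lower), 1665 with no filter and 1817 with the mean filter. Arterioles over glomeruli went from 265 genes to 1721 with DESeq2 and 551 with the mean filter, and RLE gave 237 higher and 91 lower; of the 10 genes, 1 was called with RLE, with no filter or with no fold minimum, and 2 with DESeq2 or the mean filter. Arterioles over venules went from 532 to 2208 with DESeq2, 926 with the mean filter and 257 with only the groups compared, and RLE gave 399 higher and 172 lower; the 5 called members became 3 with RLE or DESeq2. Glomeruli over venules went from 149 to 96 with RLE, 635 with DESeq2, 341 with the mean filter and 607 with only the groups compared. Only the groups compared also turned Kcnj15 to -0.040 in arterioles over glomeruli.

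Of 40 pairs of same-numbered libraries, 0 correlated above 0.1 (-0.0526 to 0.0714), and the own number correlated best in 20, a hint from the data and not from the design. With a replicate block, 23 genes and 2 list genes were called for peritubular capillaries over whole kidney, Kcnj15 turned to -0.039 in arterioles over glomeruli and Lpl to 0.059 in glomeruli over venules, and no call among the 10 genes changed in the 3 tested comparisons.

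Without single libraries, genes called ranged from 6 to 17 (peritubular capillaries over whole kidney, lowest without whole kidney 93), 543 to 1100 (over the other compartments, 543 without capillary 100), 165 to 298 (arterioles over glomeruli, lowest without glomerulus 98), 302 to 642 (arterioles over venules, lowest without venule 100) and 67 to 105 (glomeruli over venules, lowest without glomerulus 100). List genes ranged from 0 to 0 and 26 to 41, and called members from 0 to 1, 4 to 7 and 4 to 6 in the last 3 comparisons. Signs turned in arterioles over glomeruli for Slc34a1 (-0.0089 without glomerulus 100, up to 0.46), Spink1 (-0.62 to 0.013, highest without arteriole 96), Nat8 (-0.50 to 0.68) and Ttr (-0.60 to 0.67), both lowest without arteriole 98, and Kcnj15 (-0.12 to 0.22), and in glomeruli over venules for Lpl (-0.11 to 0.14). None of these was called. With 4 libraries a group, differences near the spread between libraries cannot be shown.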
